A study of Mus musculus with 12 samples.

Results

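Lcn2, Saa1, Saa2, Saa3, Hp, Chi3l1, Vnn1 and Vnn3, a set of acute-phase and secreted inflammation genes, are described here in Dkk3-null pancreatic tumor cells without and with recombinant DKK3 (rDKK3). They are 8 of the 57186 genes of the count table, found by their symbols. The genes were chosen from the measured counts of these same libraries, with their response to rDKK3 already known, so every difference between rDKK3 and untreated cells in the 8 genes is a description and carries no test as evidence.

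The study asked how rDKK3 changes the transcriptome of tumor cells that cannot make the secreted protein. The cells were the lines DDKC_9750, DDKC_9790 and DDKC_9804, grown from pancreatic tumors of mice with both copies of Dkk3 disrupted in every cell (exon 2 replaced) and Cre recombinase under the Ptf1a promoter (Ptf1aCre/+). All 12 libraries carry this genotype. For each line there were 2 untreated libraries and 2 libraries of cells that received rDKK3. The paper gives medium with serum for culture of the lines in general, and the sources used here give no rDKK3 concentration for the RNA samples. An animal age for the single lines is not given in the sources used here.

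Acute-phase proteins are secreted proteins whose production climbs, or for some falls, during infection, injury or cancer. They are made mostly in the liver and in epithelia, under cytokines that act through C/EBP, STAT3 and NF-kB transcription factors. Lipocalin 2 (Lcn2) binds bacterial iron carriers, serum amyloid A proteins (Saa1, Saa2, Saa3) bind lipids and attract leukocytes, and haptoglobin (Hp) captures free haemoglobin. Chi3l1 is a secreted chitinase-like glycoprotein without enzyme activity, and vanins (Vnn1, Vnn3) are pantetheinases that release cysteamine and pantothenate, Vnn1 being anchored to the cell membrane.

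The regions upstream of these genes are shown first, because 4 of the genes for which such a sequence was given were higher together in treated DDKC_9750. RefSeq promoter sequences (GRCm38.p6) matched 6 of the 8 genes, and each was placed at a single position on its GRCm39 chromosome. The 250 bases before each start were searched on both strands for TTNNGNAA, a form of the C/EBP site, for TTCNNNGAA, a form of the STAT site, and for the kappaB consensus. At least 1 C/EBP match was present in all 6 windows, against 36.9% of the 32841 mouse promoter windows of this length. The STAT letters were in 0 of the 6 windows and in 7.02% of all windows, and the kappaB consensus was in 1 of the 6, Chi3l1, and in 3.9% of all windows. A match is a description of letters and no evidence of binding, and matches of different motifs did not overlap. The lines below give 30 bases around matches, in the direction of transcription, with the matched letters in capitals and positions counted back from the RefSeq start. They include Saa1 and Saa2, whose RNA was almost absent from the libraries, for comparison with Saa3.
Lcn2, chr2:32277949-32277978, minus strand, -227 to -198: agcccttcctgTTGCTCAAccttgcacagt
Saa1, chr7:46392568-46392597, minus strand, -193 to -164: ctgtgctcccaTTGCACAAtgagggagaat
Saa2, chr7:46401063-46401092, plus strand, -194 to -165: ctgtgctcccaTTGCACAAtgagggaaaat
Saa3, chr7:46365181-46365210, minus strand, -110 to -81: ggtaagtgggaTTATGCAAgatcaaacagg
Saa3, chr7:46365211-46365240, minus strand, -140 to -111: gaaaagttatcTTCTGAAAgagaaattatg
Vnn3, chr10:23727330-23727359, plus strand, -30 to -1: caatcTTGCATAAccctgTTCCTCAAtgcc
The Lcn2 stretch lies inside the gene as the count table annotates it, since that annotation starts further upstream than RefSeq, and the other stretches lie upstream of the annotated genes. Saa3 held 4 C/EBP matches in its window, Saa1 and Vnn3 2 each, and Lcn2, Saa2 and Chi3l1 1 each.

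The Chi3l1 region is shown over 245 bases, up to the first exon in a later GENCODE release (vM39) than the one behind the count table, whose annotated start lies further downstream, because it was the only one of the 6 windows with a kappaB match as well as a C/EBP match (chr1:134109644-134109888 of GRCm39, plus strand, -250 to -6).
Chi3l1: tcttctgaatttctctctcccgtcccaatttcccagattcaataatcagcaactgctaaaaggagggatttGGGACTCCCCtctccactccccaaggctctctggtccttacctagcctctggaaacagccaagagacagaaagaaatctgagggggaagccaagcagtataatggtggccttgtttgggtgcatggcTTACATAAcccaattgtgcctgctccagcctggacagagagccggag
The kappaB match spans -179 to -170 and the C/EBP match -52 to -45.

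Total counts per library ranged from 7520741 to 24541083 in untreated and from 3822987 to 11567095 in rDKK3-treated cells. What distinguishes the paired libraries (separate cultures or repeats of the same RNA) is not in the labels. Once each gene was allowed a shift between the first and the second library of all pairs, the pairs differed by less than the sampling noise (mean deviance 0.764 per degree of freedom over 12979 genes, 6.39 without the shift). They were therefore counted as 1 sample, errors are SDs over n = 3 lines, and any spread within a pair may be technical. Levels are counts scaled to library size (CPM) after TMM normalization, and 3 counts, below which a gene was not told apart from 0, correspond to 0.0855 to 0.291 CPM in the summed pairs. No molecular identifiers were used, so these floors and all counting intervals describe counting error alone. Dkk3 itself had 0 counts in 11 of the libraries and 1 count in the remaining one. A count over the whole gene does not single out exon 2, and no line with intact Dkk3 was measured beside it, so it is no test of the knockout. Of the epithelial markers 8 of 8 were detected, led by Krt18 and Krt8, with a summed level of 5390 to 9820 CPM in untreated and 4200 to 8130 CPM in treated lines, although Epcam held only 0.41 to 2.04 CPM. Of 7 acinar markers 2 exceeded 3 counts in all, and Cpa1, Cel, Amy2a1 and Ptf1a were at 0.

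Lcn2 was the most abundant of the 8 genes in treated DDKC_9750 and the only one that was higher with rDKK3 in more than 1 line above the counting floor. It lies on the minus strand of chromosome 2 of GRCm39 (32274645 to 32278264, ENSMUSG00000026822.15). In untreated DDKC_9750 the libraries held 60 and 61.3 CPM (687 and 1131 counts), and both rDKK3 libraries of that line held 4460 CPM (17755 and 28255 counts). In untreated DDKC_9804 there was 1 count in each library, and with rDKK3 there were 35 and 60 counts, or 7.54 and 7.97 CPM. In DDKC_9790 Lcn2 had 0 counts in both untreated libraries and 0 and 1 counts with rDKK3, both sums being under the floor, and no ratio was formed. Treated and untreated libraries did not overlap in DDKC_9750 or DDKC_9804, while across lines the untreated libraries of DDKC_9750 were above the treated libraries of DDKC_9804.

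The ratio of treated to untreated Lcn2 was 73.7 in DDKC_9750 (95% counting interval 70.3 to 77.3). In DDKC_9804 it was 137, with an interval from 36.8 to 1150 because only 2 counts stood in the untreated sum. With rDKK3, Lcn2 made up 0.464% of all counts of DDKC_9750 (exact 95% interval 0.46 to 0.468%), against 0.00631% without it. Over the 3 lines untreated cells averaged 20.2 ± 34.9 CPM and treated cells 1490 ± 2570 CPM (SD, n = 3 lines each), so the SD over lines exceeded the difference between the means. The difference therefore stood within lines and not between the groups of lines taken as a whole. In bulk RNA, more cells with the transcript and more transcript per cell cannot be told apart.

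**Figure D1:**
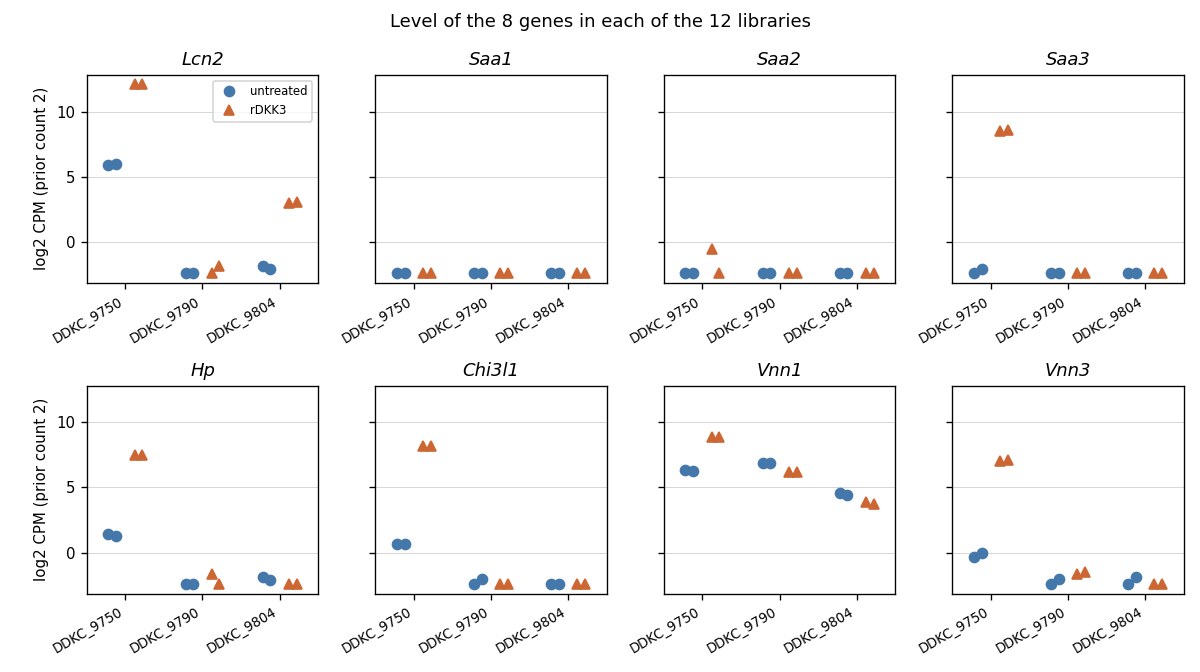
Each panel is 1 gene, with the line on the horizontal axis and log2 CPM (prior count 2) on the vertical axis, where circles are untreated and triangles rDKK3-treated libraries, 2 of each per line. The lowest position is 0 counts, and the triangles of DDKC_9750 stand above its circles for Lcn2, Saa3, Hp, Chi3l1, Vnn1 and Vnn3, whereas those of DDKC_9790 and DDKC_9804 stand below for Vnn1.

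The serum amyloid A genes form a cluster on chromosome 7, and only Saa3 was counted above the floor. Saa3 (ENSMUSG00000040026.9, minus strand, 46361422 to 46365124) is the form made outside the liver, by epithelia, fat cells and macrophages. In DDKC_9750 it had 0 and 1 counts in the untreated libraries and 1453 and 2405 counts, or 365 and 380 CPM, with rDKK3. The ratio was 11200, with a counting interval from 2020 to 444000 set by the single untreated count. Saa3 had 0 counts in all 8 libraries of DDKC_9790 and DDKC_9804, treated or not.

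Saa1 and Saa2 encode the main circulating forms, which the liver releases. Saa1 (ENSMUSG00000074115.6, minus strand, 46389921 to 46392404) had 0 counts in all 12 libraries, which allows at most 0.291 CPM in the shallowest summed pair. Saa2 (ENSMUSG00000057465.6, plus strand, 46401214 to 46403737) had 2 counts in 1 treated library of DDKC_9750 and 0 counts elsewhere. The promoter stretches of Saa1 and Saa2 shown above hold the same TTGCACAA match, while Saa3 holds other C/EBP matches. A bearing of these letters on the counts was not tested. Of the 50-base windows of the annotated Saa1 transcripts 28.8% also occur in another gene, as do 32% of those of Saa2 and 3.58% of those of Saa3, so the split of reads between Saa1 and Saa2 is uncertain. The authors counted alignments that overlap the exons of 1 gene alone and left out secondary alignments, so a read that fits several genes could count for at most the place of its primary alignment. For Lcn2, Hp, Chi3l1, Vnn1 and Vnn3 this share was 0%.

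Hp (ENSMUSG00000031722.11, chromosome 8, minus strand, 110301760 to 110305804) was detected in DDKC_9750 without rDKK3 and was higher with it. Its untreated libraries held 2.45 and 2.17 CPM (28 and 40 counts) and its treated libraries 178 and 181 CPM (709 and 1144 counts). The ratio was 79.4 (95% counting interval 62.3 to 103). In DDKC_9790 and DDKC_9804 no library exceeded 1 count.

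Chi3l1 (ENSMUSG00000064246.11, chromosome 1, plus strand, 134109914 to 134117919) was likewise highest in treated DDKC_9750. In DDKC_9750 the untreated libraries held 1.4 and 1.35 CPM (16 and 25 counts) and the treated ones 288 and 284 CPM (1148 and 1798 counts). The ratio was 209 (95% counting interval 154 to 292), and 1 count in all was found in the 8 libraries of the other lines. Thus Saa3, Hp and Chi3l1 were above 3 counts in a summed pair in DDKC_9750 only.

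The vanin genes lie close together on chromosome 10, and both were higher with rDKK3 in DDKC_9750, the only line in which both exceeded 3 counts. Vnn3 (ENSMUSG00000020010.8, plus strand, 23727360 to 23745741) held 0.612 and 0.812 CPM (7 and 15 counts) in untreated and 133 and 138 CPM (531 and 871 counts) in treated DDKC_9750. The ratio was 186 (95% counting interval 122 to 297). In DDKC_9790 and DDKC_9804 no library had more than 2 counts of Vnn3, and no fold is given.

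Vnn1 (ENSMUSG00000037440.9, plus strand, 23770586 to 23781241) was the only one of the 8 genes counted well above the floor in all 3 lines, and it went in opposite directions. In DDKC_9750 it held 81.4 and 77.3 CPM without and 466 and 464 CPM with rDKK3, a ratio of 5.92 (95% counting interval 5.63 to 6.22). In DDKC_9790 it held 117 and 114 CPM without and 74.5 and 71 CPM with rDKK3, or 1.58-fold less (1.48 to 1.69). In DDKC_9804 it held 23.4 and 20.8 CPM without and 14.2 and 12.7 CPM with rDKK3, or 1.63-fold less (1.37 to 1.94). Within each line the treated and untreated libraries did not overlap, and the log2 differences were 2.56, -0.66 and -0.70 in the order of the lines. Whether the response differs between lines could not be tested on the sums, which hold 1 sample for each line and condition. Over the lines Vnn1 averaged 71.7 ± 47 CPM in untreated and 183 ± 245 CPM in treated cells (SD, n = 3 lines each), and these groups overlapped.

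**Figure D2:**
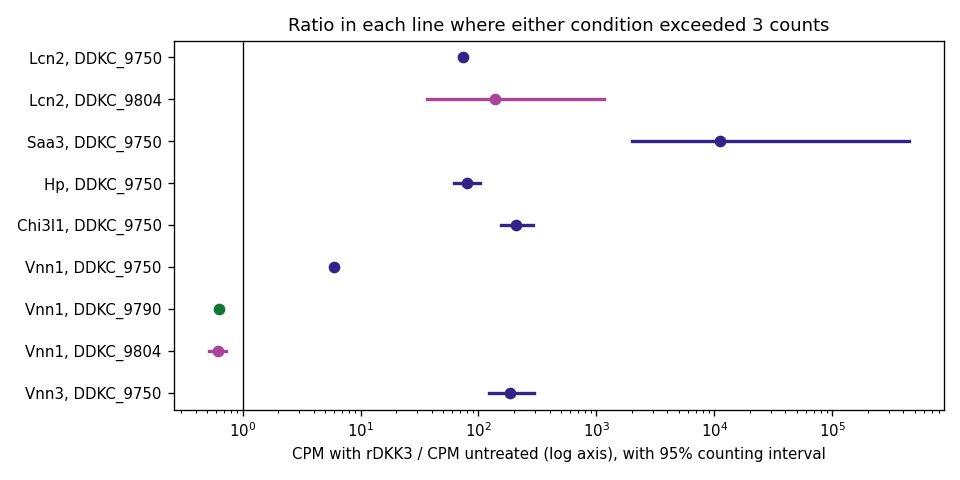
The horizontal log axis gives the CPM with rDKK3 divided by the untreated CPM, from the summed library pair, with points for the ratio and bars for its 95% counting interval, coloured by line. Pairs of gene and line in which neither condition exceeded 3 counts are not drawn, and the bars of Lcn2 and Vnn1 in DDKC_9750 are narrower than their points. Of the ratios drawn, those of Vnn1 in DDKC_9790 and DDKC_9804 lie below 1.

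Per kilobase of annotated exon, treated DDKC_9750 held 1700 CPM of Lcn2, 134 of Vnn1, 120 of Saa3, 106 of Hp, 96.9 of Chi3l1 and 58.5 of Vnn3. The length merges the exons of all annotated transcripts of a gene. It can exceed the length of the mature RNA, so these levels compare only roughly between genes. In untreated DDKC_9750 the order was 23.1 CPM per kilobase for Lcn2 and 22.7 for Vnn1, then 1.33 for Hp, 0.463 for Chi3l1, 0.315 for Vnn3 and 0.0107 for Saa3. On this scale Lcn2 and Vnn1 were close before and far apart after rDKK3. Saa3 went from the lowest place among these 6 genes to the third, and did so in plain CPM too. Within treated DDKC_9750 the 2 libraries of each of these genes lay close together, as the values above show.

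In the fit over all genes, edgeR's quasi-likelihood test on the 6 sums with the line as a block, 15214 genes were tested and 0.00657% had an adjusted p under 0.05, which is 1 gene. That gene was Lcn2, with a log2 fold change of 6.30 (standard error 0.243, adjusted p = 0.0131), and 1262 genes had an unadjusted p under 0.05. Because this contrast served to choose the genes, nothing is read from the call. Vnn1 had a log2 fold change of 0.35 with a standard error of 0.739 and edgeR's adjusted p = 0.898. Standard errors from edgeR, here and below, are the absolute log2 fold change divided by the square root of the test's F statistic. They therefore restate the test. The call of Lcn2 was lost without DDKC_9750, DDKC_9790 or DDKC_9804 (edgeR's adjusted p 0.0795, 0.183 and 0.0846) and with no replicate block (adjusted p = 1), and Vnn1 turned to -0.68 without DDKC_9750. The other 6 genes did not pass the filter on low counts, and 4 of these had over 3 counts in DDKC_9750 alone.

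With the 12 libraries taken as separate replicates and the filter applied over the 6 groups of line and condition, a setting chosen after the data were seen, 6 of the 8 genes entered the test. In that edgeR fit 18.1% of 15165 genes had an adjusted p under 0.05, and 7.95% were higher with rDKK3. Lcn2, Saa3, Hp, Chi3l1 and Vnn3 were among these, and Vnn1 was not (log2 fold change 0.43, adjusted p = 0.605). Saa3, Hp, Chi3l1 and Vnn3 entered only through libraries of DDKC_9750, and for Saa3 and Vnn3 these were the treated ones, in which they were high. The genes were chosen from the same data and the fit takes the paired libraries as independent, so these calls are no support for a difference. On the 6 sums with the same filter edgeR gave Saa3 an adjusted p of 0.338, and Hp, Chi3l1 and Vnn3 0.578 each.

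Lcn2 and Vnn1 were compared with 12171 protein-coding genes for likeness of their log2 CPM over the 6 sums. Most like Lcn2 were Cxcl1, a neutrophil chemokine (Pearson r = 0.997), Slc39a10, a zinc importer (r = 0.996), and Arid5b, a DNA-binding regulator (r = 0.994). Cxcl1 held 52.2 CPM in untreated and 409 CPM in treated DDKC_9750, and 2.65 and 13 CPM in DDKC_9804. In DDKC_9790 it held 1.46 CPM before and 1.67 CPM after, where Lcn2 was under its floor. Most like Vnn1 were Socs3, a feedback inhibitor of cytokine signaling (r = 0.999), Mgst1, a membrane glutathione transferase (r = 0.999), and Slc25a21, a mitochondrial carrier (r = 0.996). Mgst1 went from 74 to 189 CPM in DDKC_9750, from 87.5 to 71 CPM in DDKC_9790 and from 38.6 to 32.4 CPM in DDKC_9804. These r values rest on 6 points that share lines, were picked as the highest of many, and are given without a p.

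**Figure D3:**
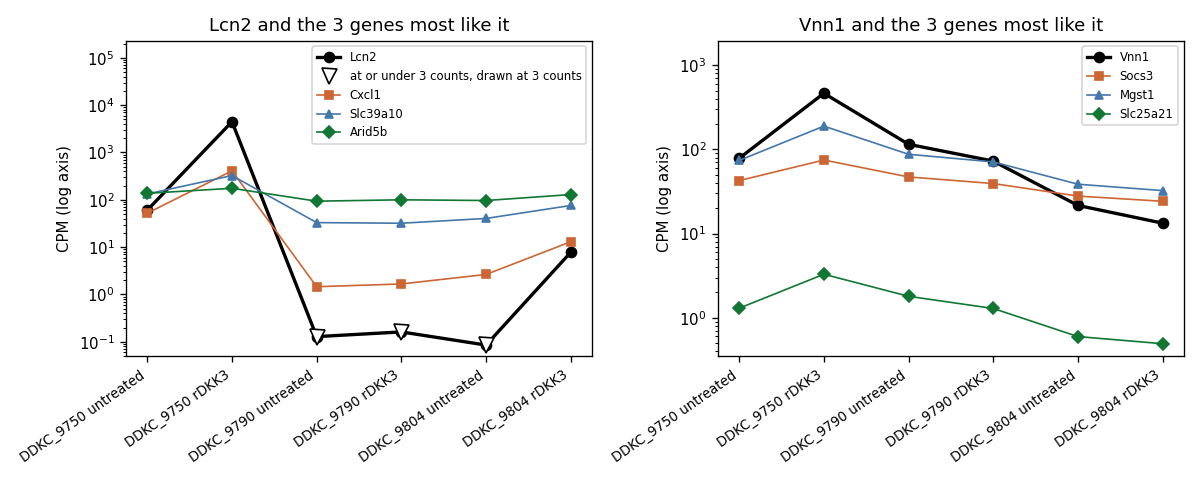
The vertical log axis gives CPM in the 6 sums of line and condition on the horizontal axis, for Lcn2 (left) and Vnn1 (right) in black and the 3 genes with the highest Pearson r to each in colour. Open triangles mark Lcn2 at or under 3 counts, drawn at the CPM of 3 counts. Cxcl1 is highest in treated DDKC_9750 with 409 CPM, and Mgst1 likewise with 189 CPM.

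The other acute-phase proteins are given by line, where a difference between lines was not tested. Of 48 listed genes, 41 had any count and 13 were tested. None passed the edgeR test on the sums (0 called, 1 with an unadjusted p under 0.05), and 1 higher and 2 lower passed when the 12 libraries were taken as replicates, a fit in which 16.7% of all 15214 genes passed and 6.93% were higher. Their median log2 difference was 1.14 in DDKC_9750, -0.38 in DDKC_9790 and -1.05 in DDKC_9804, where the medians of all genes tested were -0.01, 0 and -0.04. Of the 13 genes 11 were higher with rDKK3 in DDKC_9750, 6 in DDKC_9790 and 2 in DDKC_9804, against 7302, 7589 and 7015 of all 15214 genes tested. The 6 in DDKC_9790 include Crp and Steap4, with at most 3 counts in either condition, and Trf, with a log2 difference of 0.000668, which leaves Cp, Lbp and Cd14, with log2 differences of 0.11, 0.08 and 0.11. The list does not separate proteins that rise in an acute-phase response from those that fall, among them Trf, Rbp4 and Apoa2. Trf (1.4) and Rbp4 (0.55) are among the 11 in DDKC_9750. The 2 in DDKC_9804 are Trf (0.17) and Apoa2, with 5 and 6 counts. These counts and medians are therefore no measure of an acute-phase response. Hpx, the haem-binding hemopexin, had 32 and 424 counts without and with rDKK3 in DDKC_9750 (1.06 and 41.1 CPM). It had 5 and 0 counts in DDKC_9790 and 18 and 5 in DDKC_9804, where the deeper untreated libraries leave 0.513 and 0.41 CPM. The edgeR fit gave Hpx a log2 fold change of 2.56 ± 1.67 (standard error, adjusted p = 0.693) on the sums and 3.53 (adjusted p = 0.0252) with 12 libraries. Itih2, which binds hyaluronan, was lower in each line, by 0.84, 0.71 and 0.73 on the log2 scale, with adjusted p = 0.597 on the sums and 0.00025 with 12 libraries in edgeR's test. Il1rn, the IL1 receptor antagonist, had a log2 fold change of -0.45 (adjusted p = 0.64) on the sums and -0.46 (adjusted p = 0.0485) with 12 libraries in the same test, with differences of 0.08, -0.38 and -1.03 in the order of the lines.

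A further 5 listed genes are named after their values were seen, 3 of them below the filter on low counts. Lrg1, a leucine-rich acute-phase glycoprotein, went from 166 to 1892 counts in DDKC_9750 (5.52 to 183 CPM) and had 0 counts in the other lines. Ltf, the iron-binding lactoferrin of secretions, went from 6 to 903 counts in DDKC_9750 (0.2 to 87.5 CPM). It had at most 1 count in any other line and condition. Osmr, the receptor of oncostatin M, a liver acute-phase inducer, went from 777 to 2384 counts in DDKC_9750 (25.9 to 231 CPM), with at most 5 counts elsewhere. Like Saa3, Hp, Chi3l1 and Vnn3, these 3 genes had nearly all their counts in DDKC_9750. The acute-phase proteins Crp, a pentraxin that binds damaged membranes, and Steap4, a metalloreductase, passed the filter and were far lower in treated than in untreated DDKC_9804. Crp had 1121 counts without and 11 with rDKK3 there (31.9 and 0.902 CPM), 711 and 300 counts in DDKC_9750 (23.7 and 29.1 CPM) and 0 and 1 in DDKC_9790. Steap4 had 93 counts without and 1 with rDKK3 in DDKC_9804 (2.65 and 0.082 CPM). It had 348 and 1629 counts in DDKC_9750 (11.6 and 158 CPM) and 3 and 3 in DDKC_9790. Neither was called in edgeR's test, with adjusted p = 0.726 for Crp and 0.811 for Steap4 on the sums.

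**Figure D4:**
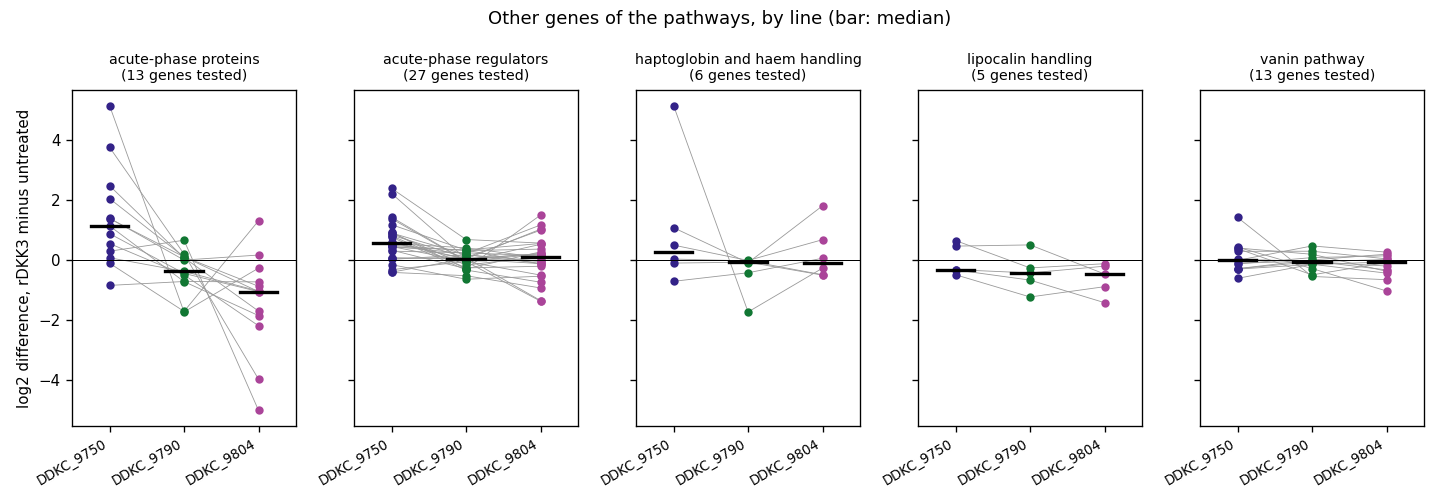
Each panel is 1 list of other pathway genes, with the line on the horizontal axis and the log2 difference of treated minus untreated CPM on the vertical axis. Points are the genes tested, grey lines join a gene across lines, and bars are medians. The median of the acute-phase proteins is 1.14 in DDKC_9750 and -1.05 in DDKC_9804.

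Of 28 regulators of the acute-phase response 27 were tested, and 0 passed on the sums in edgeR's test, with 6 at an unadjusted p under 0.05, where all genes gave 1262 of 15214. With 12 libraries as replicates 10 were higher and 3 lower, in a fit that called 16.7% of all genes tested and 6.93% as higher. The median log2 difference was 0.56 in DDKC_9750, 0.04 in DDKC_9790 and 0.12 in DDKC_9804. Cebpd, a C/EBP factor induced in acute inflammation, went from 94.2 to 440 CPM in DDKC_9750, from 11.4 to 11.7 CPM in DDKC_9790 and from 12.8 to 26.2 CPM in DDKC_9804. Its log2 fold change was 1.15 with a standard error of 0.42 (adjusted p = 0.597 in edgeR's test on the sums). Cebpb, its relative, measured 113 and 293 CPM without and with rDKK3 in DDKC_9750, 151 and 147 CPM in DDKC_9790 and 99.8 and 115 CPM in DDKC_9804.

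Nfkbiz, an inducible co-factor of NF-kB needed for Lcn2 expression, was higher in each line, from 107 to 144 CPM, from 45 to 57 CPM and from 43.9 to 64.4 CPM in the order of the lines. The edgeR fit gave Nfkbiz a log2 fold change of 0.44 ± 0.107 (standard error, adjusted p = 0.597) on the sums and 0.43 (adjusted p = 0.000549) with 12 libraries. Nfkbia, the NF-kB inhibitor, measured 59.6 and 161 CPM without and with rDKK3 in DDKC_9750, 38.9 and 38.2 CPM in DDKC_9790 and 25.6 and 36.8 CPM in DDKC_9804. Zc3h12a, an RNase that degrades inflammatory mRNAs, had a log2 fold change of 1.23 (adjusted p = 0.597 on the sums in edgeR's test), with differences of 2.39, 0.69 and 0.57 in the order of the lines. Il1r1, the IL1 receptor, was lower in each line, with a log2 fold change of -0.62 (adjusted p = 0.597 on the sums in edgeR's test). Stat3, which carries cytokine signals to the nucleus, measured 149 and 278 CPM in DDKC_9750, 91.3 and 103 CPM in DDKC_9790 and 93.9 and 87 CPM in DDKC_9804. Socs3 measured 42.6 and 74.8 CPM, 47.1 and 39.3 CPM, and 27.9 and 24.2 CPM in the same order.

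The partners of the 8 genes were tested as lists in the same fits. On the sums 0 genes passed in any of the following lists in edgeR's test, and the counts called with 12 libraries are given beside the counts at an unadjusted p under 0.05 on the sums. Over all 15214 genes tested the 12-library fit called 16.7%, with 6.93% higher, and 1262 genes were under the unadjusted threshold on the sums. For lipocalin handling (5 genes tested) 2 were lower with 12 libraries and 2 were under the unadjusted threshold, namely Tfrc, the transferrin receptor, with a log2 fold change of -0.79, and Ptgds, a lipocalin that makes prostaglandin D, with -0.83. For haptoglobin and haem handling (6 tested) 3 were higher with 12 libraries and 0 were under the unadjusted threshold. These were Hpx, Lrp1, the hemopexin receptor (log2 fold change 0.39), and Hmox1, which breaks down haem (0.94). For the chitinase-like family and Chi3l1 receptors (6 tested) 1 was higher and 1 under the threshold, Il13ra2, a reported Chi3l1 receptor. Il13ra2 went from 14 to 220 counts in DDKC_9750 (0.466 to 21.3 CPM). In DDKC_9804 it went from 4 to 11 counts (0.114 to 0.902 CPM), and it had 0 in DDKC_9790. For the vanin pathway (13 tested) 1 was lower with 12 libraries, Pank1, a pantothenate kinase (-0.39), and 0 were under the threshold. For the serum amyloid A receptors (5 tested) both counts were 0. The medians of these lists in single lines lay between -0.46 and 0.28 on the log2 scale, where that of the acute-phase proteins in DDKC_9750 was 1.14.

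The markers of cell types that make these proteins in tissue were read in the same libraries. Of 10 neutrophil markers 2 exceeded 3 counts in all, with a summed level of at most 0.257 CPM in untreated and 0.194 CPM in treated lines, and Elane, Mpo, Csf3r and Retnlg were at 0. Of 9 macrophage markers 4 did, led by Cd68 and Csf1r, with sums of 9.68 to 34.9 CPM and 10.9 to 49.9 CPM, and Adgre1, Lyz2, C1qa and C1qb were at 0. Of 6 hepatocyte markers 4 did, with sums of 0.472 to 8.02 CPM in untreated and 0.323 to 20.2 CPM in treated lines, and Cyp3a11 was at 0. Alb, the most abundant of them, was highest in DDKC_9750, with 4.79 CPM before and 13.9 CPM after rDKK3, beside Hp at 2.26 and 180 CPM there, and its part in the values of Hp and Saa3 was not tested. In the same line Serpina1c stood at 1.53 CPM before and 5.23 CPM after, Apoa1 at 1.06 and 0.291 CPM, and Ttr at 0.632 and 0.775 CPM. Of 7 fibroblast markers 5 did, with sums of 7.18 to 51.1 CPM in untreated and 5.74 to 134 CPM in treated lines. Acta2 led these and stood at 38.1 CPM before and 126 CPM after rDKK3 in DDKC_9750, while Col1a1 stood at 11.2 and 6.69 CPM there, and their part in the values of the 8 genes was not tested.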

How the data were processed

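RNA of 3 DDKC lines was measured in 12 libraries. The authors aligned the reads to GRCm39 with STAR 2.7.9a, counted them per gene by strand and deposited raw counts without normalization, and DESeq2 1.38.0 is named in the submitters' processing notes. Spike-in rows (92, with 0 counts) were left out. Line and treatment came from the labels. Here counts were summed over the 2 libraries of each line and condition and tested with edgeR 4.0.16 in R 4.3.3 (quasi-likelihood test, TMM, filterByExpr over the 2 conditions, line as block, Benjamini-Hochberg, threshold 0.05). The line pairs the samples, since the labels name it for both conditions, and deviations from condition means correlated at 0.802, 0.865 and 0.786 within lines. Log2 CPM used a prior count of 2. Ratio intervals are exact conditional Poisson intervals. Exon lengths came from a later GENCODE release of the same build and merge the exons of all transcripts of a gene. The genes, the lists and the rules were chosen with earlier results of these data known. Named list genes were all those called on the sums, the 4 largest per list called with 12 libraries only at an average of at least 10 counts, and 6 fixed regulators, and 5 more (Lrg1, Ltf, Osmr, Crp, Steap4) were chosen after their values were seen. The fits were tested on simulated data. Alternatives covered RLE, DESeq2 1.42.0, filters, depth, library series and left-out lines.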

Additional observations from a re-analysis of the deposited data

Results flagged for a closer look

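Vnn1 moved in opposite directions between the lines, with every treated library above every untreated one in DDKC_9750 (log2 difference 2.56) and below in DDKC_9790 (-0.66) and DDKC_9804 (-0.70). The difference between the lines was not tested, because each line and condition is 1 sample.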

How the results depend on the processing

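On the 6 sums with the line as block edgeR called 1 gene, Lcn2. The number of genes called was 96 with DESeq2, 90 without the filter on low counts, 2534 with 12 libraries as replicates, 2885 with the library series added, 2744 with 12 libraries and the filter over 6 groups (chosen after the data were seen), and 0 after thinning to equal depth (1203 at an unadjusted p under 0.05), where Lcn2 had a log2 fold change of 6.31 (adjusted p = 0.245 in edgeR's test) against 6.30. Without the line, that is with no replicate block, 0 genes were called on the sums and 0 with 12 libraries (106 and 1091 at an unadjusted p under 0.05), and Lcn2 had log2 fold changes of 6.21 and 6.20 with adjusted p of 1 and 0.671 in edgeR's test. Of the 8 genes, 1 was called in the main setting, 5 without the filter, 5 with 12 libraries and the filter over 6 groups, and 0 after thinning and with no replicate block on the sums or the 12 libraries. Leaving out each line in turn gave 0 to 0 calls among all genes, the 8 genes and the lists (621 to 1764 genes at an unadjusted p under 0.05). Without DDKC_9750, DDKC_9790 or DDKC_9804 the log2 fold change of Lcn2 was 6.89, 6.35 or 6.20 (adjusted p 0.0795, 0.183 and 0.0846 in edgeR's test), and Vnn1 turned to -0.68 without DDKC_9750 (adjusted p = 0.237), 0.998 without DDKC_9790 and 0.96 without DDKC_9804. Of the pathway list genes 0 were called on the sums, 2 with DESeq2, 6 without the filter, 22 with 12 libraries, 21 with the library series and 27 with 12 libraries and the filter over 6 groups. The log2 differences in single lines of the 8 genes kept their direction in the 9 pairs of gene and line above 3 counts with a prior count of 0.5 and with the first or second libraries alone, which was not run for the list genes. The causes were not tested, beyond fewer lines in the fits that leave one out. Depth limits Lcn2 in DDKC_9790, and every other of the 8 genes except Vnn1 outside DDKC_9750, to statements against 3 counts, and it leaves a wide interval for Lcn2 in DDKC_9804, whose untreated sum held 2 counts.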
